A study of Mus musculus with 24 samples.

Results

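Tmem181b-ps, Lypd1, 2810021J22Rik, Cgn and Xpo1 are the 5 genes, of 25135 listed, with the largest rises in Kdm6b-cKO nuclei at postnatal day (P) 30. They were chosen by their P30 values: among genes that passed the test at that age, with no overlap between the genotypes, their mean levels rose most. The P30 difference between genotypes is therefore given as a description, without a test. The P1 libraries played no part in the choice. All 5 passed the filter on low values at both ages.

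RNA was sequenced from SUN1-GFP+ nuclei sorted from mouse cortex, with 6 libraries per genotype and age, 24 in all. WT mice were Kdm6b wt/wt, and Kdm6b-cKO mice (Kdm6b-KO in the labels) were Emx1-Cre; Kdm6b f/f. Both were littermates on a C57BL/6 background and carried the SUN1-GFP reporter, a nuclear membrane tag switched on by Cre. Emx1-Cre acts in dorsal telencephalic progenitors, which give rise to glutamatergic neurons, astrocytes and part of the oligodendrocytes, so other cortical cells keep Kdm6b. The methods name Emx1-Cre for the cKO genotype only, although nuclei of both genotypes were sorted on GFP. The libraries were sequenced on an AVITI or a NovaSeq 6000 instrument, without a statement of which was used for which. Nothing in the labels ties each library to a separate animal, so p-values measure the spread between libraries only.

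KDM6B removes methyl groups from lysine 27 of histone H3, a mark that Polycomb complexes lay down at silenced promoters, many of them rich in CpG dinucleotides. Loss of the enzyme is generally expected to leave its direct targets lower, and the question of these libraries was which genes of the Emx1 lineage change without it. The 5 genes described here rose, and they belong to different processes. Tmem181b-ps is a transcribed pseudogene of the multipass membrane protein gene Tmem181a. Lypd1 encodes a GPI-anchored protein of the Ly6/uPAR family that binds nicotinic acetylcholine receptors. Cgn encodes cingulin, a protein of the cytoplasmic face of tight junctions. Xpo1 encodes exportin 1 (CRM1), which carries proteins with a leucine-rich export signal out of the nucleus together with Ran. 2810021J22Rik is known by the name of its RIKEN cDNA clone.

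In mm9, the build of the deposited values, Tmem181b-ps lies on the minus strand at chr17:6439626-6489526, Lypd1 on the minus strand at chr1:127764199-127809678 and Cgn on the minus strand at chr3:94464507-94590414. Xpo1 (chr11:23156041-23198249) and 2810021J22Rik (chr11:58680718-58696790) are both on the plus strand of chromosome 11. Kdm6b itself is on chromosome 11 (chr11:69212010-69227177), 10.5 Mb from 2810021J22Rik and 46.0 Mb from Xpo1. Chromosome 11 held 8.4% of the tested genes with a known position, and their median log2 difference at P30 was -0.06.

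Tmem181b-ps shares much of its sequence with other places in the genome, which bears on every value given for it. Of 1677 exonic windows of 50 bases, 74.78% were found a second time in the genome, and 44.84% lay within Tmem181a. The share was 1.41% for Lypd1, 2.14% for 2810021J22Rik, 21.3% for Cgn and 0% for Xpo1. The windows of Tmem181b-ps came from 2585 exonic bases of the GENCODE annotation. Its deposited P30 values imply a counted length near 4520 bases if their smallest step is 1 read. Any counted sequence outside that annotation was not searched. When the pseudogene was compared with Tmem181a in 85 windows of 60 bases, 32 had no mismatch, 16 had 1 or 2 and 36 had more than 6, so that some stretches are near identical and others clearly differ. The pair below comes from a coding stretch of Tmem181a and is shown because a read from it can be assigned only at the capital letters, which mark the 2 mismatches.
Tmem181b-ps, chr17:6466067-6466126, mm9, minus strand: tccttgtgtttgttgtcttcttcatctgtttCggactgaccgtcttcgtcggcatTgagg
Tmem181a, chr17:6280642-6280701, mm9, plus strand: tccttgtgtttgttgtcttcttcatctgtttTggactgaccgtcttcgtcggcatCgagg
How reads matching both genes were divided is not given in the sources used here, so the split between Tmem181b-ps and Tmem181a is uncertain.

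The promoters of the members were read from RefSeq (GRCm38.p6) as the 250 bases before each start, for 4 of the 5 genes. The dinucleotide CG, which reads the same on both strands, was found 8, 9 and 14 times before the starts of Lypd1, 16 before 2810021J22Rik, 19 before Cgn and 22 before Xpo1. Of 32841 promoters of this length, 43% held at least the 8 CG of the poorest of these windows and 14.8% at least the 22 of the richest. Those extremes are printed with CG in capitals.
Lypd1, chr1:125912929-125913178, GRCm38.p6, minus strand: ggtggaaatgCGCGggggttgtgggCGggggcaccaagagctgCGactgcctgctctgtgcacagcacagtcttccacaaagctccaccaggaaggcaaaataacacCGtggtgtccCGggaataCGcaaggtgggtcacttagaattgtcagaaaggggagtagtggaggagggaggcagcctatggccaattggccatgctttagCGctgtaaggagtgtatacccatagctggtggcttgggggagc
Xpo1, chr11:23255791-23256040, GRCm38.p6, plus strand: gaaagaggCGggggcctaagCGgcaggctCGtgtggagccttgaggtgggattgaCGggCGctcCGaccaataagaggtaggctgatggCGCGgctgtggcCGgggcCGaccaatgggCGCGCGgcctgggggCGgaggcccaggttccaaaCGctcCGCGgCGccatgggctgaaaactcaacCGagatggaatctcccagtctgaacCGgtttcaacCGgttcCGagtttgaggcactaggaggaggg
The 6 windows thus ranged widely in CpG content.

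Values are FPKM as deposited, that is, fragments counted per kilobase of a transcript and scaled to the mapped total, and each age was scaled separately. Effective depth, read from the steps that single reads leave in the values, was 5128000 to 8327000 reads in WT and 1940000 to 8065000 in Kdm6b-cKO libraries at P30. At P1 it was 821000 to 3912000 in WT and 192000 to 2854000 in Kdm6b-cKO libraries. Kdm6b, counted over the whole gene, reached 16.9 to 26.4 FPKM in WT at P30 and 17.5 to 28.1 in Kdm6b-cKO libraries, and 24.9 to 51.0 against 15.0 to 38.4 at P1. These ranges overlap, and the gene-level mean was not lower in Kdm6b-cKO at P30 (log2 difference 0.115, against -0.407 at P1). No value is given for the floxed exons alone, so the genotypes of these libraries rest on the labels. The paper reports efficient loss of Kdm6b mRNA in sorted GFP+ nuclei by qRT-PCR, which reads a single amplicon rather than the whole gene. It does not tie this loss to single libraries. Sox10 was lower in all 6 Kdm6b-cKO libraries than in any WT library at both ages (log2 difference -1.46, limma adjusted p = 0.0204 at P30, and -1.41, adjusted p = 0.183 at P1). Rn45s, the 45S precursor of ribosomal RNA, set libraries apart in both genotypes at P30, as described below.

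At P30 each of the 5 genes was higher in every Kdm6b-cKO library than in every WT library. Tmem181b-ps stood at 12.0, 10.6, 10.2, 11.3, 11.9 and 12.0 FPKM in the WT libraries 0 to 5. In the Kdm6b-cKO libraries 0 to 5 it stood at 71.3, 48.9, 25.8, 29.1, 46.9 and 52.3 FPKM. The WT libraries lay close together, whereas the Kdm6b-cKO libraries spread widely, from 2.15 times the highest WT value upward. The means were 11.3 ± 0.779 and 45.7 ± 16.6 FPKM (SD, n = 6 each), a log2 difference of 1.92 (SE 0.222). Its values came in whole steps. If 1 step is 1 read, they corresponded to 262 to 447 reads in WT and 311 to 2214 reads in Kdm6b-cKO libraries.

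Lypd1 measured 2.66, 4.01, 3.74, 2.08, 4.96 and 3.26 FPKM in WT libraries 0 to 5, and 9.09, 10.5, 9.00, 6.97, 14.6 and 11.6 FPKM in Kdm6b-cKO libraries 0 to 5. The lowest Kdm6b-cKO library was 1.41 times the highest WT library. The means were 3.45 ± 1.02 and 10.3 ± 2.62 FPKM (SD, n = 6 each), with a log2 difference of 1.56 (SE 0.237).

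2810021J22Rik measured 2.44, 4.03, 3.14, 2.65, 3.45 and 3.07 in WT and 7.37, 6.17, 10.7, 8.39, 9.54 and 4.77 FPKM in Kdm6b-cKO libraries, in the same order. The groups came closest here and in Cgn, with the lowest Kdm6b-cKO library at 1.19 times the highest WT library. The means were 3.13 ± 0.568 and 7.82 ± 2.18 FPKM, and the log2 difference was 1.26 (SE 0.222). If 1 step is 1 read, this rested on 64 to 135 reads in WT and 87 to 238 in Kdm6b-cKO libraries.

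Cgn was detected at 4.94, 2.52, 3.67, 2.60, 2.61 and 3.49 in WT and at 8.63, 9.03, 9.01, 7.91, 6.13 and 6.61 FPKM in Kdm6b-cKO libraries. WT library 0 was the highest of its group, and the lowest Kdm6b-cKO library was 1.24 times that level. The means were 3.30 ± 0.943 and 7.89 ± 1.25 FPKM, giving a log2 difference of 1.26 (SE 0.208).

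Xpo1 was the most abundant member in WT nuclei on the FPKM scale, which is per length, and had the smallest spread in the mutant relative to its mean. It measured 18.2, 11.3, 17.8, 19.0, 18.8 and 17.6 in WT and 41.5, 32.0, 37.9, 34.9, 38.4 and 32.9 FPKM in Kdm6b-cKO libraries. WT library 1 lay apart below the other WT libraries, and every Kdm6b-cKO library was at least 1.69 times the highest WT value. The means were 17.1 ± 2.89 and 36.3 ± 3.61 FPKM, with a log2 difference of 1.09 (SE 0.151).

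**Figure D1:**
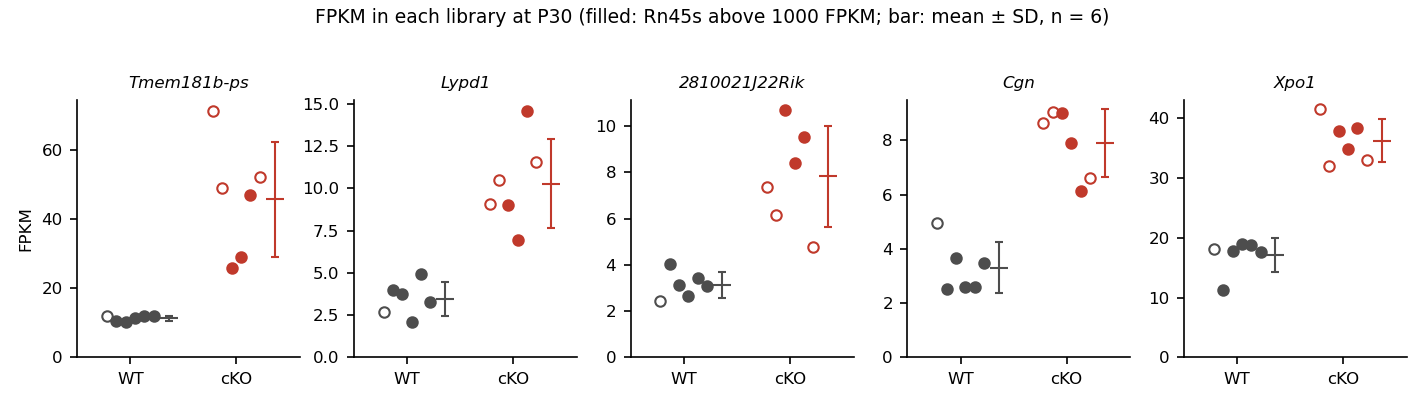
FPKM of the 5 genes in each P30 library, by genotype (6 WT in grey, 6 Kdm6b-cKO in red), with the mean and SD beside the points; filled points are libraries with Rn45s above 1000 FPKM, and each panel has its own axis from 0. In every panel the red points lie above all grey points, with Tmem181b-ps at 25.8 to 71.3 FPKM against 10.2 to 12.0.

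Of 13289 genes tested at P30, 0.0527% were called higher (7 genes, limma adjusted p under 0.05 and more than 2-fold), and 0.888% had every Kdm6b-cKO library above every WT library (118 genes). All 5 members were in both sets because the choice required it, and nothing is read from these counts. Just inside the choice was Xpo1 at a log2 difference of 1.09. Just outside were Ankrd6, which encodes the Wnt pathway protein Diversin, at 1.05 (SE 0.19; 3.67 to 6.44 FPKM in WT and 7.06 to 12.0 in Kdm6b-cKO) and the zinc finger gene Zfp715 at 1.02 (SE 0.16; 4.14 to 6.02 and 8.30 to 12.6 FPKM). By the size of the log2 difference alone the members ranked 66th, 118th, 183rd, 186th and 247th of all tested genes, in the order of their listing above.

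At P1 none of the 5 genes passed the test. Of 16250 genes tested at that age, 0% were called in either direction by limma, the smallest adjusted p was 0.16, and 2352 genes had an unadjusted p under 0.05. No member had groups that did not overlap, against 1.29% of all tested genes. The direction was higher in Kdm6b-cKO for Xpo1 and lower for Tmem181b-ps and Cgn under each of the 25 alternatives fitted, whereas the sign for Lypd1 and 2810021J22Rik depended on the alternative. The median log2 difference of all genes at P1 was -0.25, and -0.02 after quantile normalization.

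Tmem181b-ps measured 11.7, 11.0, 30.2, 33.7, 11.8 and 5.84 FPKM in the P1 WT libraries 0 to 5 and 10.3, 7.14, 9.73, 3.40, 10.1 and 10.3 FPKM in the Kdm6b-cKO libraries. WT libraries 2 and 3 were the high ones, and no Kdm6b-cKO library exceeded the WT median of 11.8 FPKM. The log2 difference was -0.85 (SE 0.436, limma adjusted p = 0.385), with an exact two-sided permutation p of 0.11. Its P1 values rested on 29 to 317 reads in WT and 9 to 125 reads in Kdm6b-cKO libraries, if 1 step is 1 read.

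Cgn was likewise low in most mutant libraries at P1. It measured 7.37, 10.4, 16.5, 8.70, 13.9 and 13.2 in WT and 5.46, 2.99, 4.37, 4.93, 8.01 and 15.2 FPKM in Kdm6b-cKO libraries. Of the Kdm6b-cKO libraries, 4 lay below the lowest WT library, and library 5, the shallowest of all with 192000 reads, lay near the top of the WT range. The log2 difference was -0.91 (SE 0.383, limma adjusted p = 0.299), and the exact two-sided permutation p was 0.0433 for this gene alone. Without library 5 the difference was -1.18 (adjusted p = 0.0943).

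Xpo1 measured 25.0, 32.7, 33.5, 29.7, 24.2 and 10.2 in WT and 35.8, 38.3, 52.2, 35.3, 28.8 and 30.8 FPKM in Kdm6b-cKO libraries at P1. All 6 Kdm6b-cKO libraries exceeded the WT median of 27.4 FPKM and 4 exceeded the highest WT library. The log2 difference was 0.58 (SE 0.29, limma adjusted p = 0.375), with an exact two-sided permutation p of 0.0303 for this gene alone. WT library 5 was the low one, and without it the difference was 0.33 (adjusted p = 0.566).

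Lypd1 and 2810021J22Rik showed no separation of the genotypes at P1. Lypd1 ranged from 2.97 to 5.97 FPKM in WT (median 3.75) and from 1.46 to 10.4 FPKM in Kdm6b-cKO libraries (median 4.08). Its Kdm6b-cKO libraries lay on both sides, with 2 above and 2 below the entire WT range. The log2 difference was 0.14 (SE 0.489, limma adjusted p = 0.907, exact permutation p = 0.758). 2810021J22Rik ranged from 2.73 to 5.16 FPKM in WT (median 3.87) and from 1.04 to 5.35 FPKM in Kdm6b-cKO libraries (median 3.89), with a log2 difference of -0.25 (SE 0.435, limma adjusted p = 0.804, exact permutation p = 0.602). The shallow libraries held as few as 4 reads of this gene, if 1 step is 1 read.

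**Figure D2:**
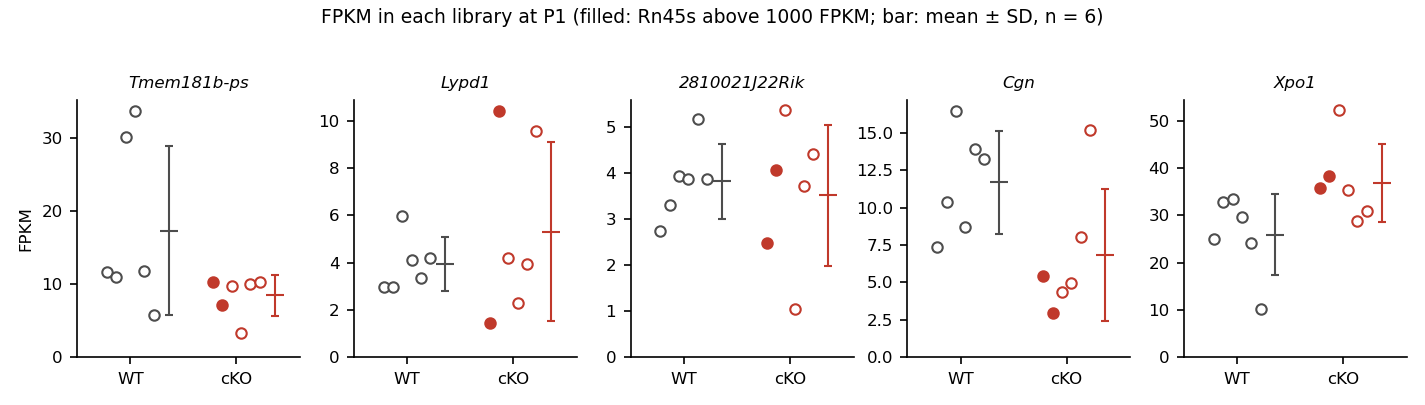
FPKM of the 5 genes in each P1 library, by genotype (6 WT in grey, 6 Kdm6b-cKO in red), with the mean and SD beside the points; filled points are libraries with Rn45s above 1000 FPKM. The groups overlap in every panel, and Cgn in Kdm6b-cKO spans 2.99 to 15.2 FPKM because of 1 high library.

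The P1 libraries differed in a second respect. WT libraries 2 to 5 and Kdm6b-cKO library 5 held 397 to 794 olfactory receptor genes above 0 FPKM, whereas the others held 2 to 22. Among the 7 libraries without this signal (2 WT, 5 Kdm6b-cKO) the log2 differences were -0.58 for Tmem181b-ps, 0.26 for Lypd1, -0.04 for 2810021J22Rik, -0.82 for Cgn and 0.38 for Xpo1. The exact permutation p there was 0.143 or more for each gene, and 0.0476 was the smallest possible. Among the 5 libraries with it, of which 1 was Kdm6b-cKO, Cgn was 0.25 higher and Tmem181b-ps 0.65 lower on the log2 scale in that library, with exact permutation p of 0.6 and 0.8 where 0.2 was the smallest possible. The remaining differences in that 1 library were 1.13 for Lypd1 (9.58 FPKM against 3.36 to 5.97 in WT, exact permutation p = 0.2), 0.08 for 2810021J22Rik and 0.47 for Xpo1. When this signal was added to the fit over all P1 libraries as a term, the log2 differences were -0.61 for Tmem181b-ps, 0.57 for Lypd1, 0.00 for 2810021J22Rik, -0.44 for Cgn and 0.41 for Xpo1 (limma adjusted p of 0.642 or more).

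**Figure D3:**
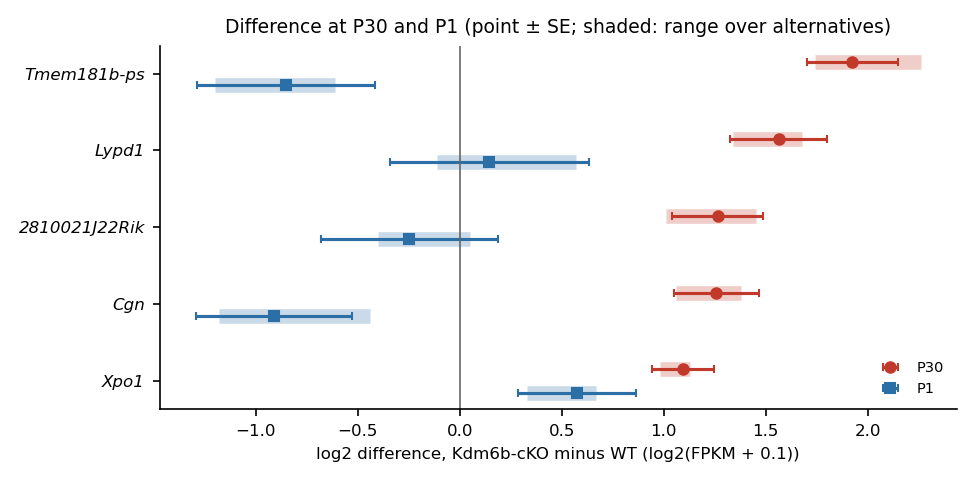
Log2 difference of each gene, Kdm6b-cKO minus WT on the log2(FPKM + 0.1) scale, at P30 (red circles) and P1 (blue squares), with the SE as a bar and the range over the alternatives as shading. At P30 all points lie between 1.09 and 1.92, the values by which the genes were chosen, and at P1 they lie between -0.91 and 0.58.

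Rn45s varied more between the P30 libraries than any member did. It stood at 450 FPKM in WT library 0 and at 1629 to 4027 FPKM in the other 5 WT libraries. In Kdm6b-cKO it stood at 175 to 209 FPKM in libraries 0, 1 and 5 and at 3034, 15420 and 25878 FPKM in libraries 2, 3 and 4. These 3 high libraries were also the shallowest at P30, with 1940000 to 2664000 effective reads. Because the levels formed separate clusters within each genotype, no correlation of a member with Rn45s is given, and the members are described on either side of 1000 FPKM.

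Within Kdm6b-cKO, Tmem181b-ps was 48.9 to 71.3 FPKM in the 3 libraries with low Rn45s and 25.8 to 46.9 FPKM in the 3 with high Rn45s. 2810021J22Rik showed the opposite order, with 4.77 to 7.37 FPKM at low and 8.39 to 10.7 FPKM at high Rn45s. Both pairs of ranges did not overlap, at an exact two-sided permutation p of 0.1, the smallest that 3 against 3 libraries can give. For Lypd1, Cgn and Xpo1 the ranges overlapped (exact permutation p = 0.8, 0.6 and 0.7), so a relation to Rn45s was not detectable with these libraries. In WT, where 1 library had low Rn45s, that library was by a small margin the highest in Tmem181b-ps (11.99 FPKM against 10.17 to 11.95). It was also the highest in Cgn (4.94 FPKM against 2.52 to 3.67) and the lowest in 2810021J22Rik (2.44 against 2.65 to 4.03 FPKM). The exact permutation p was 0.167 and 0.333, and 0.167 was the smallest possible. In all, 10 such comparisons were made, none of which could reach 0.05. The same split set apart the summed level of 16 glutamatergic neuron genes. It was 301 to 339 FPKM in the 3 Kdm6b-cKO libraries with low Rn45s and 559 to 842 FPKM in the 3 with high Rn45s. In WT it was 414 FPKM in the low library and 584 to 790 FPKM in the others. Rn45s, depth and this level cannot be told apart in Kdm6b-cKO, and their part was not tested.

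The size of the P30 difference is given on each side of that level as a description. Its sign there was fixed by the choice of genes without overlap between the genotypes, so it bears in no way on the part of Rn45s in the rise, which was not tested. Among the 8 libraries with Rn45s above 1000 FPKM (5 WT, 3 Kdm6b-cKO) the log2 differences were 1.55 for Tmem181b-ps, 1.46 for Lypd1, 1.52 for 2810021J22Rik, 1.34 for Cgn and 1.15 for Xpo1. Among the 4 below it (1 WT, 3 Kdm6b-cKO) they were 2.23, 1.92, 1.27, 0.69 and 0.95 in the same order. With the log2 Rn45s level as a covariate, the fitted differences were 1.89, 1.57, 1.30, 1.24 and 1.09.

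**Figure D4:**
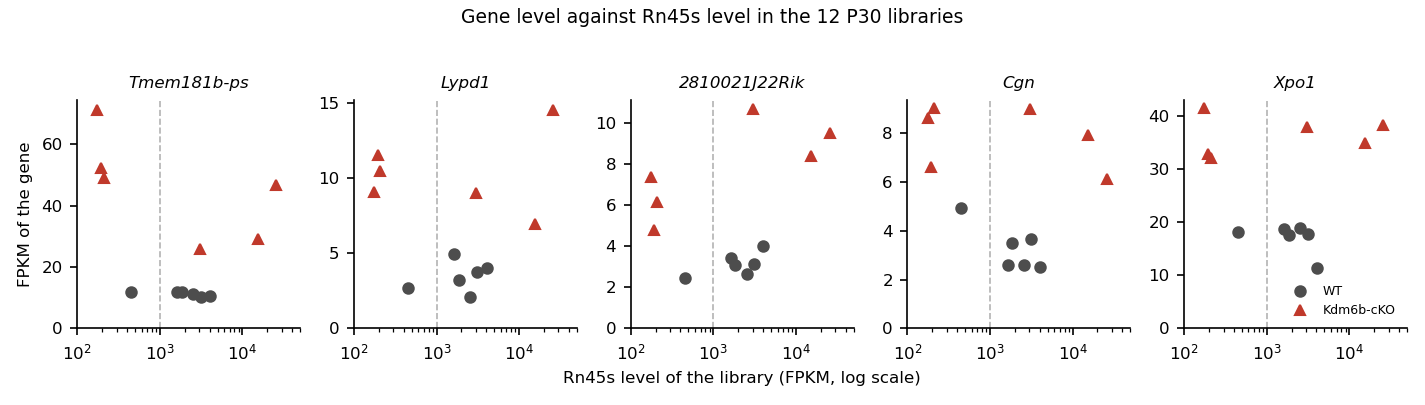
FPKM of each gene against the Rn45s level (FPKM, log axis) in the 12 P30 libraries, WT as grey circles and Kdm6b-cKO as red triangles; the dashed line marks 1000 FPKM. The choice of the genes set all red points above all grey ones, and within Kdm6b-cKO the 3 triangles to the right of the line are the lower ones for Tmem181b-ps and the higher ones for 2810021J22Rik.

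Markers of other cell types also moved at P30. The sorted nuclei held abundant Slc17a7, the vesicular glutamate transporter of cortical excitatory neurons (76.5 to 216 FPKM over both genotypes), as the labelled lineage implies. Of 16 mature oligodendrocyte genes tested 5 fell and none rose, where 0.226% of all tested genes were called lower (30 genes; list median log2 difference -1.22, all genes -0.05), among them Mbp and Mag, which encode myelin proteins, with log2 differences of -1.27 and -1.59 (limma adjusted p = 0.0204 and 0.00538). The summed level of this list was 372 to 699 FPKM in WT, against 180 to 276 FPKM in Kdm6b-cKO. Its part in the rise of the members was not tested, and in bulk nuclei fewer cells of a type and less RNA per cell cannot be told apart.

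GABAergic neurons, which do not descend from the Emx1 lineage, left markers in every library. Of 12 such genes tested all 12 had a positive log2 difference at P30 (median 1.49), although none passed the test. The summed level of all 16 genes of the list, tested or not, was 241 to 432 FPKM in Kdm6b-cKO libraries. In WT it was 590 and 396 FPKM in libraries 0 and 1 and 60.9 to 136 FPKM in the other 4. In WT libraries 0 and 1, whose GABAergic level was in or above the Kdm6b-cKO range, Tmem181b-ps was at 12.0 and 10.6, Lypd1 at 2.66 and 4.01, 2810021J22Rik at 2.44 and 4.03, Cgn at 4.94 and 2.52, and Xpo1 at 18.2 and 11.3 FPKM. The choice of genes fixed that these values lie below those of Kdm6b-cKO, and the part of the GABAergic signal in the rise was not tested. The 16 endothelial and mural genes had a summed level of 27.2 and 26.2 FPKM in WT libraries 0 and 1 and of 7.77 to 10.4 FPKM in the other 4. In Kdm6b-cKO the 16 genes summed to 14.6 to 38.0 FPKM (median 17.8, against 9.40 in WT). Only 4 of them were tested, with a median log2 difference of 0.84. The 12 microglial genes summed to 12.4 to 50.1 FPKM in WT (median 17.8) against 22.5 to 46.0 in Kdm6b-cKO (median 35.5). The median log2 difference was 0.43 over the 7 tested. None of either list was called, and their part in the rise was not tested. The endothelial marker Pecam1 was at a mean of 0.0384 FPKM in WT, and of 0.33 in Kdm6b-cKO. None of 12 astrocyte genes was called (median -0.06), Sox10 alone was called of 10 oligodendrocyte precursor genes (median -0.15), and Slc17a6 and Nrn1 fell of 16 glutamatergic genes (median -0.28).

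The relatives of each member were examined from lists of related genes and partners, leaving out the member itself. Over all genes tested at P30, 0.0527% were called higher and 0.226% lower. Short lists without a called gene are near that share, so nothing is read from their lack of calls. The same holds for the neighbouring genes. In the Tmem181 family, Tmem181a had 8.49 to 14.8 FPKM in WT at P30, and 13.0 to 27.0 in Kdm6b-cKO. Of its Kdm6b-cKO libraries 5 exceeded the highest WT library, and the log2 difference was 0.62 (SE 0.198, limma adjusted p = 0.223). Tmem181c-ps, the other pseudogene, was too low at P30 for the test, at 0 to 0.259 FPKM in WT against 0.355 to 1.17 in Kdm6b-cKO libraries, without overlap. At P1, Tmem181c-ps was higher in mutant nuclei (2.53 ± 0.823 and 4.78 ± 1.86 FPKM, SD, n = 6 each; log2 difference 0.90, limma adjusted p = 0.346), while Tmem181b-ps had the opposite sign. Of the 7 tested genes of the family and its chromosome 17 neighbourhood none was called at P30 (median 0.06). Among them, Dynlt1b, a dynein light chain gene 4.2 kb from Tmem181b-ps, was at 0.669 ± 0.455 and 2.93 ± 3.51 FPKM. The log2 difference of Dynlt1b was 1.4 (SE 0.97, limma adjusted p = 0.592).

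**Figure D5:**
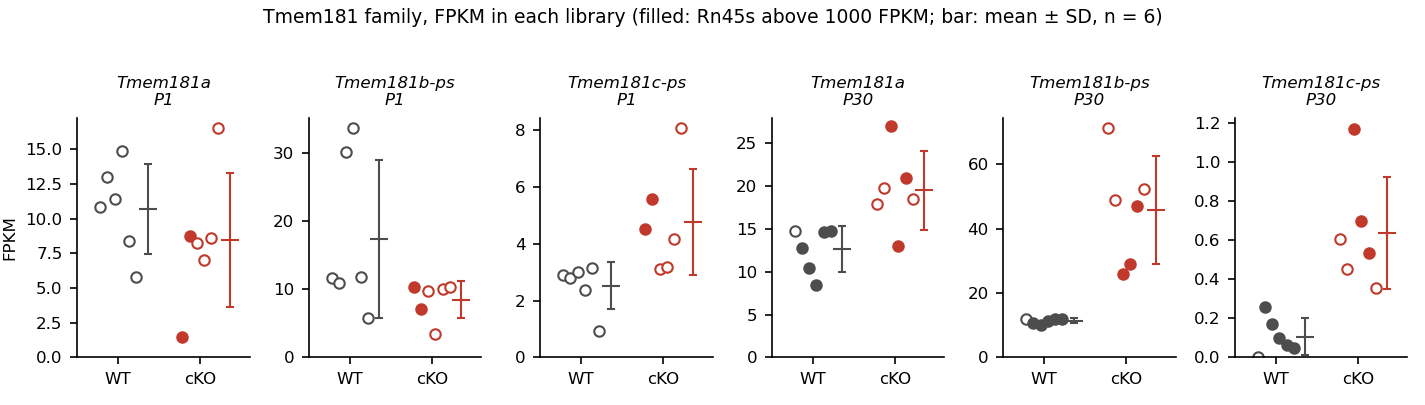
FPKM of Tmem181a, Tmem181b-ps and Tmem181c-ps in each library at P1 and P30 (WT grey, Kdm6b-cKO red, mean and SD beside the points, filled points with Rn45s above 1000 FPKM). At P30 Tmem181b-ps and Tmem181c-ps show no overlap between genotypes and Tmem181a overlaps in 1 Kdm6b-cKO library of 13.0 FPKM, and the axes of Tmem181c-ps are far lower than those of the other genes.

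For Lypd1, none of the 5 tested genes of the Ly6/uPAR family was called at P30 (median -0.05). Ly6h, the most abundant of those named here, was at 307 ± 40.4 and 312 ± 57.4 FPKM, and Lynx1, another modulator of nicotinic receptors, had a log2 difference of -0.57 (SE 0.2, limma adjusted p = 0.264). None of 3 tested nicotinic receptor subunits was called either. Chrna4 and Chrnb2, the subunits of the main high-affinity receptor of the cortex, stood at -0.14 (SE 0.22) and -0.04 (SE 0.23).

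Among 22 tested tight junction components, which act with cingulin, none was called at P30 and the median was 0.01. In 1 of these genes every Kdm6b-cKO library was above every WT library, against 0.888% of all tested genes. Cgnl1, the paralog of Cgn, measured 0.93 ± 0.578 FPKM in WT, against 2.17 ± 2.06 in Kdm6b-cKO (log2 difference 0.88, SE 0.58, limma adjusted p = 0.566). The scaffold gene Tjp1 had a difference of 0.48 (SE 0.23, adjusted p = 0.417), and Ocln, which encodes occludin, was below 1.55 FPKM in every library. Cldn5, the claudin of brain endothelium, had a difference of 1.01 with an SE of 0.83 (adjusted p = 0.663).

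Among 32 tested nuclear transport receptors and genes of the Ran system none was called at P30, with a median of 0.00 and 16 genes on either side of 0. Ran, the GTPase that binds exportin 1 with its cargo, was at 6.68 ± 2.30 and 6.81 ± 2.96 FPKM. The importin Kpnb1, the exportin Xpo7 and Cse1l, which returns importin alpha to the cytoplasm, had log2 differences of 0.06 (SE 0.23), -0.09 (SE 0.22) and -0.02 (SE 0.26). In 1 of the 32 every Kdm6b-cKO library was above every WT library at P30, against 0.888% of all tested genes. At P1 none of the 32 was called, and Ran had a difference of 0.66 (SE 0.27, limma adjusted p = 0.295).

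Genes next to the members were not called. Lypd1 overlaps Gpr39, a G protein-coupled receptor gene, whose mean was 4.62 FPKM in WT at P30, against 8.55 in Kdm6b-cKO (log2 difference 0.76, SE 0.32, limma adjusted p = 0.348). Nckap5, 0.5 kb away on the other side, was at 3.95 and 8.79 FPKM (0.94, SE 0.42, adjusted p = 0.371). Whether the counting used the strand is not given in the sources used here, so reads of Lypd1 and Gpr39 may not be separable where the genes overlap. Zfp39, 4.9 kb from 2810021J22Rik, measured 1.31 and 1.21 FPKM (0.02, SE 0.42). Of 24 tested genes in the list of KRAB zinc finger genes and Trim28 none was called. Zfp317 passed the adjusted p with a change under 2-fold (0.81, SE 0.15). The zinc finger gene Zfp715, which was called higher at P30 (1.02, SE 0.16), was not in this list. In 2 of the 24 every Kdm6b-cKO library was above every WT library, against 0.888% of all tested genes. On the far side of Xpo1, Usp34, a deubiquitinase gene at 8.7 kb, measured 22.3 and 38.9 FPKM (0.58, SE 0.43, adjusted p = 0.62). Cgn lies between Tuft1 and Pogz, with differences of -1.07 (SE 0.74) and 0.10 (SE 0.14). For Tmem181b-ps and Xpo1 the tested genes on the remaining side, Ezr and Fam161a, were 453 and 225 kb away. Ezr had a log2 difference of -0.69 (SE 0.7, limma adjusted p = 0.734), and Fam161a of 1.17 (SE 0.68, adjusted p = 0.513).

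To find genes that varied like each member from library to library, the genotype means were taken off. Log2 levels were then correlated with those of 13288 tested genes over the 12 P30 libraries. These libraries differed in depth and Rn45s level, and no term for either was fitted. Tmem181b-ps varied most like Zfyve16, Prkar1b and Zfp780b (r = 0.96, 0.96 and 0.95), for which r over the 12 P1 libraries was 0.07, -0.39 and 0.38. Lypd1 varied most like H4c4, Ubxn2b and Tmub1 (r = 0.88, 0.87 and 0.85; at P1 0.10, 0.52 and 0.31). 2810021J22Rik varied most like Lnx2, Tab1 and Disp3 (r = 0.95, 0.93 and 0.92; at P1 -0.09, -0.17 and -0.18). For Cgn these were Tgfbr1, Carhsp1 and Nadk2 (r = 0.92, 0.85 and 0.82; at P1 -0.01, 0.00 and 0.56), and for Xpo1 Hat1, Rras and Echdc1 (r = 0.88, 0.87 and 0.87; at P1 -0.02, 0.57 and 0.09). These are the highest values among many and are descriptive. None of the 15 genes was itself called at P30.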

How the data were processed

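Each genotype had 6 libraries at each age. The authors aligned reads to mm9 with HISAT2 and deposited FPKM per gene and library, scaled with Cuffdiff. The deposited Cuffdiff comparison tables, which hold group FPKM, fold changes, test statistics, p-values and q-values, were not used. The 12 libraries of an age were fitted on log2(FPKM + 0.1) by limma 3.58.1 (R 4.3.3), using lmFit and a trended eBayes. Genes whose mean reached 1 FPKM entered the fit, tests were two-sided, and p-values were adjusted by Benjamini-Hochberg over every gene fitted. Fold changes on this scale understate those of low genes. Genes were called at an adjusted p below 0.05 with over 2-fold change. Exact permutation tests used all 924 splits of 12 libraries into equal groups, or all splits of the smaller sets, with a smallest p of 0.00217 for 6 against 6.

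Columns are numbered 0 to 5 within a group and were assigned to groups by name, not to single samples. Effective depth was read from the steps that 1 read leaves in genes with a single transcript, assuming fragments of 200 bases. It is the only measure of depth used, and its scale depends on that length.

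The 5 genes, the 13 lists of related genes and cell type markers and the comparisons were chosen with earlier results of these data known. Named genes are the 5 members, every other gene called higher at P30, the 3 genes most like each member, list genes that were called (Sox10, Mbp, Mag, Slc17a6 and Nrn1 are given among these) with fixed examples, tested neighbours, and Rn45s, Kdm6b and Sox10 as checks. Gpr39, Pecam1, Slc17a7 and Zfp317 were named after their values were seen. Positions are from the GENCODE annotation of mm9, and promoters from RefSeq on GRCm38.p6. Alternatives were pseudocounts of 1 and 0.01, no filter or a mean of 5 FPKM, median-of-ratios scaling, quantile normalization, no trend, robust fits, array weights, terms for Rn45s and for olfactory receptor signal (more than 100 receptor genes above 0), and leaving out each library. Other steps ran in Python 3.11.15 (numpy 2.4.6; pandas 2.3.3; matplotlib 3.10.9), and the fit was tested on simulated data.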

Additional observations from a re-analysis of the deposited data

Results flagged for a closer look

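Xpo1 in WT library 1 at P30, at 11.3 FPKM, lay far from the rest of its group. The gap to the next library (17.6 FPKM) was 0.822 of the range of the 6 WT libraries, where 0.625 is the critical value. It was the only one of 20 groups of 6 libraries checked (5 genes, both genotypes, both ages), and chance alone sets apart about 1 group in 20. This library had the highest Rn45s level of the WT group, 4027 FPKM. Without it the log2 difference of Xpo1 at P30 was 0.98.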

How the results depend on the processing

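No paired analysis was possible because the columns, numbered 0 to 5, carry none of the replicate numbers of the labels. At P30, where the choice of genes fixed the sign, the log2 differences ranged over the 24 alternatives from 1.74 to 2.26 for Tmem181b-ps, 1.34 to 1.68 for Lypd1, 1.01 to 1.45 for 2810021J22Rik, 1.06 to 1.38 for Cgn and 0.98 to 1.13 for Xpo1. At P1 they were -1.20 to -0.61 for Tmem181b-ps, -1.18 to -0.44 for Cgn and 0.33 to 0.67 for Xpo1, and no member was called under any alternative. The sign changed for Lypd1 with array weights (-0.09), with libraries weighted by depth (-0.00), and without Kdm6b-cKO library 1 (-0.11) or 5 (-0.09). It changed for 2810021J22Rik with the olfactory receptor term (0.00) and without Kdm6b-cKO library 3 (0.05). With single libraries left out, Lypd1 ranged from -0.11 to 0.44 and 2810021J22Rik from -0.40 to 0.05. The cause was not tested.

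Counts of called genes depended on the setting. At P30, 7 genes were called higher, against 15 after quantile normalization, 201 with array weights, 73 with Rn45s as a covariate, 185 with a term for Rn45s below or above 1000 FPKM, 14 with libraries weighted by depth, and 1 to 10 when single libraries were left out. The choice required all 5 members to pass at P30, so their counts are a description and no support: 1 to 5 passed when a library was left out, 1 without WT library 2, 3 or 5, 2 without Kdm6b-cKO library 0 or 1, and 3 without WT library 1 or 4. At P1, 0 genes were called higher and 0 lower, against 1 lower without the trend, 197 higher and 209 lower with libraries weighted by depth, and 0 to 24 higher and 0 to 27 lower when single libraries were left out, the highest counts coming without Kdm6b-cKO library 4. The weights by depth and the fit without Kdm6b-cKO libraries 0 and 1 at P1 were chosen after the data were seen. A mean of at least 5 FPKM left Lypd1 and 2810021J22Rik without a value at P1. The alternatives for correlations with Rn45s were not run, since no correlation was given. Depth limited P1 most, where 2810021J22Rik rested on 4 to 71 reads in Kdm6b-cKO libraries, if 1 step is 1 read.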

Other observations

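With the genotype means taken off, the 5 genes did not vary together between the P30 libraries. Tmem181b-ps and 2810021J22Rik varied in opposite directions at P30 (Pearson's r = -0.53) and in the same direction at P1 (0.45), over 12 libraries each. Lypd1 and Cgn had r = -0.41 at P30 and 0.23 at P1. The highest value at P30 was 0.28, between Cgn and Xpo1, and the highest at P1 was 0.59, between Lypd1 and 2810021J22Rik. These values are descriptive, since the libraries of an age differed in depth, Rn45s level and, at P1, olfactory receptor signal.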
